A study of Mus musculus with 24 samples.

Results

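The mitosis and spindle genes are 48 mouse genes whose products build the spindle, condense and hold the chromosomes, and time their separation. They were taken by name: every probe of the array whose gene name is 1 of the 48 or an older symbol of the same gene. That gave 81 probes, and 8 genes were found under an older symbol, among them Cdk1 as Cdc2a and Ndc80 as Kntc2. A gene counted as measured where 3 or more of the 4 arrays in some group had a probe of it well above background, and 45 of the 48 passed, among 16497 genes of the whole array. Ttk, a checkpoint kinase, Kif2c, a microtubule-depolymerizing kinesin, and Anln, a scaffold of the contractile ring, did not pass. Their probes were well above background on 0, 1 and at most 3 of the 24 arrays, so no values are given for them.

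The arrays hold total RNA of CD4 T cells from female C57BL/6 mice, in 6 groups of 4 arrays. The groups were naive cells given 13 h of T cell receptor stimulation (anti-CD3 and anti-CD28 coated on plates), from mice with a T cell-specific conditional knockout of Trim28 (CKO) and from wild type (WT) mice, naive unstimulated cells of CKO and WT mice, and regulatory T cells (Treg) of CKO and WT mice. In the treatment field the 4 CKO Treg samples carry the label of stimulated cells, and the 4 WT Treg samples do not. Titles and source names give no stimulation for either. The labels do not name the Cre driver, and they do not say whether the replicates came from separate animals, so the p-values speak of the spread among these arrays only. Replicates 1 to 4 were 7, 6, 6 and 7 weeks old in CKO and WT stimulated cells and CKO Treg, and 6, 6, 6 and 7 weeks old in the other 3 groups. Trim28 encodes a corepressor that zinc finger proteins bring to chromatin. Its level was 1.08, 1.05, 1.23 and 0.53 on the CKO arrays, against 3.40, 3.86, 3.76 and 3.60 on the WT arrays of stimulated cells (log2 fold change -2.68 ± 0.17, SE), and it was also lower in CKO unstimulated cells (-1.51 ± 0.17) and in CKO Treg (-1.57 ± 0.17). Whether its probe lies in the deleted part is not given in the sources used here. All values of a gene are log2 of its signal over the 75th percentile of the array, so 0 stands for that percentile, and a fold change is the difference of 2 group means on this scale. Of the CD4 T cell markers 6 of 7 listed were measured, and of the Treg markers 5 of 5. Each was well above background on at least 1 array of every group. The summed Treg marker level was 109 to 143 on CKO Treg arrays and 115 to 127 on WT Treg arrays. On naive arrays it was 3.74 to 33.8.

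As background, a cell enters mitosis when cyclin-bound Cdk1 becomes active, and it leaves when the anaphase-promoting complex marks cyclin B and securin for destruction. Until every chromosome is attached to the spindle, the checkpoint proteins of the Bub and Mad families hold that step back. Resting T cells keep most of these genes low, and an activated T cell passes through a long growth phase and DNA replication before its first division. In proliferating cells many of these genes share promoter elements: the CHR element, through which the MuvB core recruits first the DREAM repressor and later B-MYB and FOXM1, and CCAAT boxes bound by NF-Y.

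These elements were looked for in RefSeq promoters (GRCm38.p6) that run from 250 bases before to 50 bases after the start of a gene. The table held 43 promoters of 39 members; Ccna2, Aurkb, Pbk, Spc24, Incenp, Kif20a, Tpx2, Smc4 and Foxm1 had none. A CHR match (TTTGAA or TTCGAA, both strands) stood in 74.4% of the members' promoters and in 19.2% of all 32851 promoters. A CCAAT match (both strands, sharing of bases with the CHR allowed) stood in 79.1% of the members' promoters and 37.4% of all, and both elements stood in 67.4% and 7.52% of them. The 18 promoters of members that fell in CKO stimulated cells held both in 72.2%, and the 22 promoters of measured members that did not fall held both in 68.2%. Among 47 promoters of DNA replication genes, both stood in 10.6%. A match is a run of letters and not a shown binding site. The 120 bases before the start are printed for 5 members that fell in CKO stimulated cells (Cdk1, Ncapg, Espl1, Top2a and Mad2l1) and 2 that did not pass the test (Kif11 and Cdc20), 5' to 3' on the strand of the gene, with matches of either element in capitals. Mad2l1 is shown because it fell with neither element in its promoter.
Cdk1, chr10:69352913-69353032, minus strand: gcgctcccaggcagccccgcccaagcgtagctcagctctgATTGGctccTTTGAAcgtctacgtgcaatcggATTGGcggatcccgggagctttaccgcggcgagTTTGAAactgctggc
Ncapg, chr5:45669805-45669924, plus strand: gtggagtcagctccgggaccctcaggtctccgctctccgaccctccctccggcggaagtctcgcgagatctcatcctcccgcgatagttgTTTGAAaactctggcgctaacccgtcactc
Espl1, chr15:102296173-102296292, plus strand: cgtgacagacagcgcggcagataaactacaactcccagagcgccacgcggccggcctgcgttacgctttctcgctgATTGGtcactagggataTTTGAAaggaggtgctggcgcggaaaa
Top2a, chr11:99024190-99024309, minus strand: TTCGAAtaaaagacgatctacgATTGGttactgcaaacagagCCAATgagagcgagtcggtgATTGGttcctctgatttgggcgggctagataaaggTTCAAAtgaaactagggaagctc
Mad2l1, chr6:66535101-66535220, plus strand: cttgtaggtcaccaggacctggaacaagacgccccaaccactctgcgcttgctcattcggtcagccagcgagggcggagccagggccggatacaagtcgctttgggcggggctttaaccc
Kif11, chr19:37376262-37376381, plus strand: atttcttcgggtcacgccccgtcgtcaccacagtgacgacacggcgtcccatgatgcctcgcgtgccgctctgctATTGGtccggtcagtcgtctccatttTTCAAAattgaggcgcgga
Cdc20, chr4:118437344-118437463, minus strand: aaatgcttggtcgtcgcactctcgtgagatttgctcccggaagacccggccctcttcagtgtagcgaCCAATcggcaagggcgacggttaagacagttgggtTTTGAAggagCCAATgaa

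Signal limits what the dim members can show. CKO Treg arrays had a 75th percentile of 31.3 to 116 signal units and WT Treg arrays one of 53.9 to 200.2, against 154 to 372 on naive arrays. Of the 48 members 26 were well above background on all 24 arrays, and none was saturated on any. The dim ones included Cdk1, Aurkb, Pbk, Nek2 and Espl1, which were well above background on 13, 8, 10, 9 and 8 arrays. Levels of different probes are not on a common scale, so genes are compared across groups only.

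**Figure D1:**
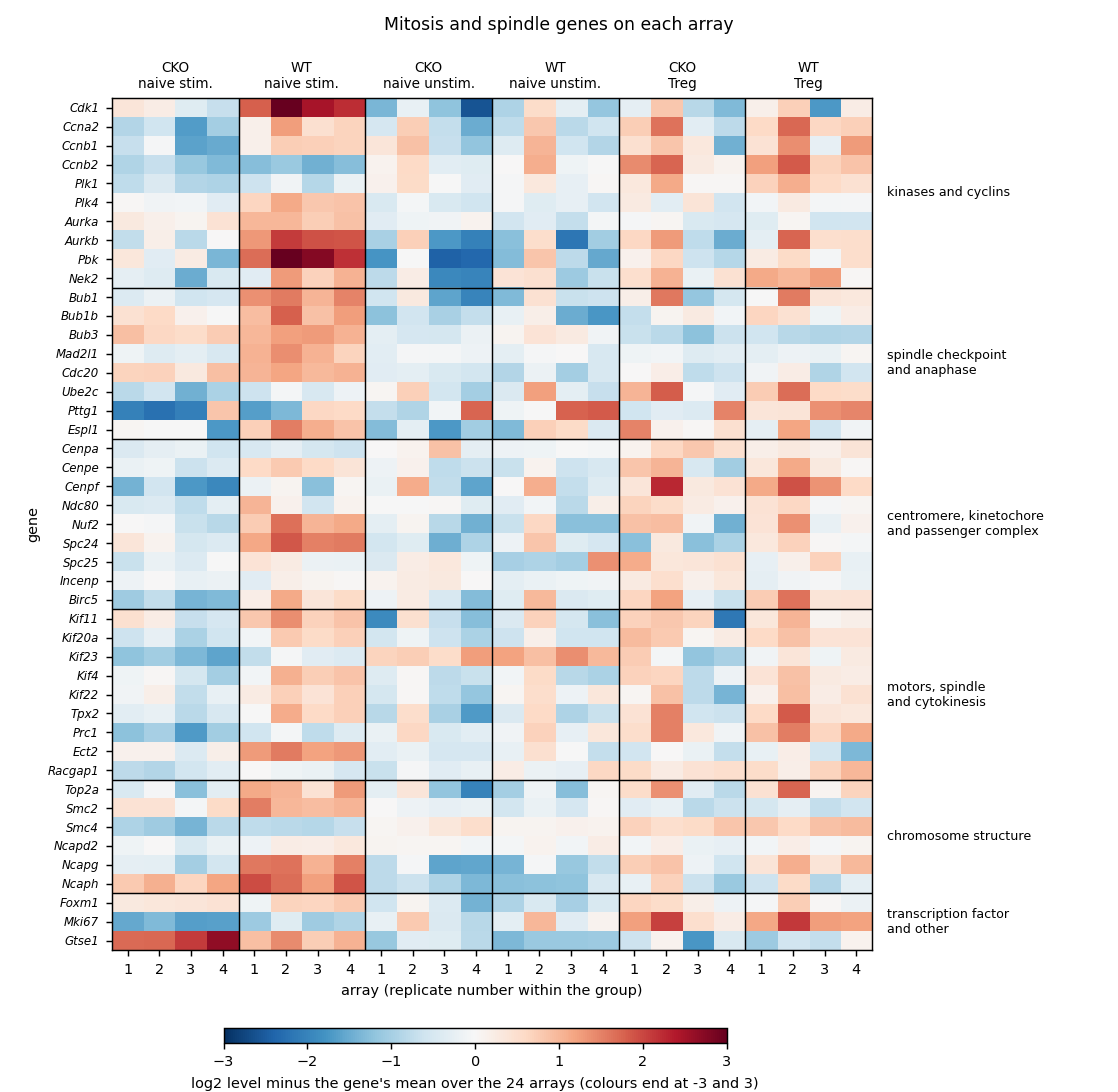
Log2 level of the 45 measured genes (rows, by role) on the 24 arrays (columns, replicates 1 to 4 of each group), each minus the mean of the gene over all arrays; red is higher and blue lower. The block of WT naive stimulated arrays is red for most rows, while the CKO naive stimulated arrays beside it are not, and 29 of the 45 genes had all 4 CKO arrays below all 4 WT arrays in that pair of groups.

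In stimulated cells, the CKO arrays had lower levels of most mitosis and spindle genes than the WT arrays. Of 45 measured members 21 fell and 1 rose (limma, Benjamini-Hochberg adjusted p under 0.05 over all genes), while 12.4% of all genes tested fell and 11.7% rose. The median log2 fold change was -0.92, against -0.05 over all genes, and 42 of 45 members lay below 0, against 53.6% of all genes. Of the 26 members well above background on all 24 arrays, 9 fell and 0 rose, with a median of -0.66. For 29 members every CKO array lay below every WT array, which holds for 15.3% of all genes, and for 1 member the reverse was true, as for 10.3% of all genes. Among members with 3 or more arrays well above background in both groups, the largest falls were those of Pbk, 6.83-fold, and Cdk1, 6.15-fold. The 1 member that rose was Gtse1, a microtubule-bound protein that restrains p53 in G2 phase.

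**Figure D2:**
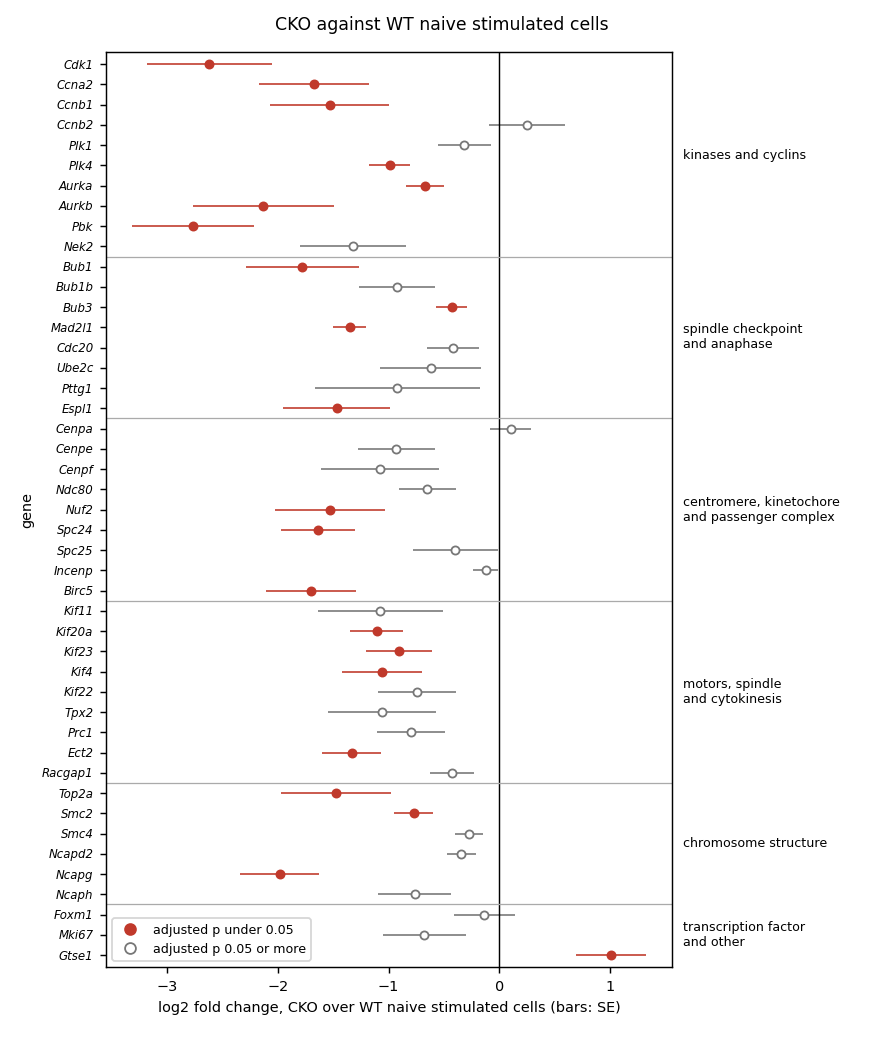
Log2 fold change of each of the 45 measured genes in CKO over WT naive stimulated cells (x axis; bars are SE of the fit, n = 4 arrays per group), by role; filled points have an adjusted p under 0.05. Most points lie left of 0, with Pbk at -2.77 and Cdk1 at -2.62 farthest, and Gtse1 at 1.01 is the only filled point to the right.

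Among the kinases and cyclins 7 of 10 measured members fell; each parenthesis gives the log2 fold change with its SE and the limma adjusted p. Cdk1, the kinase that drives entry into mitosis, was at -4.08, -4.22, -4.81 and -5.13 on the CKO arrays, against -2.65, -0.90, -1.96 and -2.23 on the WT arrays (-2.62 ± 0.57, adjusted p = 0.00280). Pbk, a mitotic kinase, was at -4.43, -5.09, -4.51 and -6.13 on the CKO arrays, against -3.09, -1.41, -2.01 and -2.57 on the WT arrays (-2.77 ± 0.55, adjusted p = 0.00150). In both genes the groups did not overlap, and 3 of the 4 CKO arrays were well above background. Ccna2, the A-type cyclin of S phase and G2, was at -2.71, -2.42, -3.49 and -2.84 on the CKO arrays, against -1.68, -0.57, -1.35 and -1.16 on the WT arrays (-1.68 ± 0.50, adjusted p = 0.0206). Ccnb1, the cyclin partner of Cdk1, was at -5.29, -4.64, -6.20 and -6.12 on the CKO arrays, against -4.45, -3.87, -3.88 and -3.92 on the WT arrays (-1.53 ± 0.54, adjusted p = 0.0432). All CKO arrays again lay below all WT arrays for both cyclins, although 2 of the 4 CKO arrays were well above background for Ccnb1. Aurkb, the kinase of the chromosomal passenger complex, was at -5.79, -4.88, -5.86 and -5.05 on the CKO arrays, against -3.76, -2.96, -3.16 and -3.17 on the WT arrays (-2.13 ± 0.64, adjusted p = 0.0206), and 1 CKO array was well above background. It was counted as measured through the WT stimulated arrays alone. Aurka, the kinase of spindle poles, was at 0.58, 0.45, 0.38 and 0.72 on the CKO arrays, against 1.28, 1.30, 1.04 and 1.18 on the WT arrays (-0.67 ± 0.17, adjusted p = 0.00848). The difference of its means was wider than the range of either group, and Plk4, the kinase of centriole duplication, also fell (-0.99 ± 0.19, adjusted p = 0.000976).

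The other 3 kinases and cyclins did not pass the test. Ccnb2, the second B-type cyclin, was at -1.33, -1.12, -1.58 and -1.75 on the CKO arrays, against -1.70, -1.53, -1.86 and -1.70 on the WT arrays (0.25 ± 0.34, adjusted p = 0.615). Plk1, a kinase of mitotic entry and exit, was at -1.005, -0.68, -1.12 and -1.17 on the CKO arrays, against -0.86, -0.33, -1.08 and -0.43 on the WT arrays (-0.32 ± 0.24, adjusted p = 0.346). The groups overlapped for both genes. Nek2, a centrosomal kinase, was not well above background on any CKO stimulated array and was so on 3 WT ones. Its groups overlapped (adjusted p = 0.0509). As a lower bound, its CKO mean was 1.69-fold below its WT mean, but the fall was not called. For this bound each CKO array was given the lowest signal that counted as well above background on it, unless its own value was higher.

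Of the spindle checkpoint and anaphase genes 4 of 8 fell. Bub1, a checkpoint kinase at kinetochores, was at -4.01, -3.79, -4.22 and -4.12 on the CKO arrays, against -2.25, -2.06, -2.58 and -2.13 on the WT arrays (-1.78 ± 0.51, adjusted p = 0.0173). Mad2l1, the checkpoint protein that holds Cdc20, was at -2.52, -2.79, -2.69 and -2.88 on the CKO arrays, against -1.35, -1.01, -1.37 and -1.74 on the WT arrays (-1.35 ± 0.15, adjusted p = 2.42e-06). Both genes separated the groups with a gap wider than the range within either, and Mad2l1 had the smallest adjusted p of all members. Bub3, the partner of Bub1, was at 4.27, 3.99, 3.92 and 4.14 on the CKO arrays, against 4.37, 4.61, 4.65 and 4.42 on the WT arrays (-0.43 ± 0.14, adjusted p = 0.0341). Its groups did not overlap, but its other kept probes read 0.67 and -0.33, so the probes of Bub3 disagree in sign. Espl1, the separase that cuts cohesin, fell as well (-1.47 ± 0.49, adjusted p = 0.0337), with 2 CKO and 3 WT arrays well above background. It, too, was counted as measured through the WT stimulated arrays alone.

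Bub1b, a subunit of the mitotic checkpoint complex, was at -2.58, -2.44, -2.90 and -3.04 on the CKO arrays, against -2.11, -1.23, -2.15 and -1.77 on the WT arrays (-0.92 ± 0.34, adjusted p = 0.0536). Cdc20, the activator of the anaphase-promoting complex, was at 1.44, 1.47, 1.08 and 1.69 on the CKO arrays, against 1.80, 1.96, 1.75 and 1.83 on the WT arrays (-0.42 ± 0.24, adjusted p = 0.203). In both genes every CKO array was below every WT array, yet neither passed the test. Pttg1, the securin that restrains separase, was at 0.07, -0.15, 0.03 and 2.92 on the CKO arrays, against 0.45, 0.74, 2.70 and 2.68 on the WT arrays (-0.92 ± 0.75, adjusted p = 0.381). It split each group rather than the genotypes: CKO array 4 and WT arrays 3 and 4 were high and the other 5 low. Ube2c, the ubiquitin-conjugating enzyme of the anaphase-promoting complex, differed by -0.62 ± 0.46, adjusted p = 0.329.

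Of the 9 genes of the centromere, the kinetochore and the passenger complex 3 fell. Birc5 (survivin), the passenger subunit that brings Aurora B to centromeres, was at -0.22, 0.13, -0.53 and -0.47 on the CKO arrays, against 1.07, 1.99, 1.22 and 1.44 on the WT arrays (-1.70 ± 0.41, adjusted p = 0.00562). Spc24 and Nuf2, which are subunits of the NDC80 complex that grips microtubules, fell by 1.64 and 1.53 on the log2 scale (adjusted p = 0.00201 and 0.0304). All 3 genes had CKO arrays wholly below WT arrays. Ndc80 itself was at -2.21, -2.16, -2.52 and -2.04 on the CKO arrays, against -0.74, -1.63, -2.32 and -1.65 on the WT arrays (-0.65 ± 0.26, adjusted p = 0.0693). Cenpa, the histone H3 variant of centromeres, was at -0.01, 0.15, 0.23 and -0.18 on the CKO arrays, against -0.07, 0.15, -0.11 and -0.20 on the WT arrays (0.10 ± 0.18, adjusted p = 0.713). The groups of these 2 genes overlapped. A second, dimmer probe of Cenpa read 0.99. Cenpe, Cenpf, Spc25 and Incenp lay between -1.08 and -0.12 and did not pass.

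Among the motors and the genes of the spindle and cytokinesis 4 of 9 fell: Ect2, the exchange factor that activates RhoA for furrow formation (-1.33 ± 0.27, adjusted p = 0.00157), Kif20a, a kinesin of the central spindle (-1.11 ± 0.24, adjusted p = 0.00295), Kif4, a chromosome-bound kinesin (-1.06 ± 0.36, adjusted p = 0.0371), and Kif23, the kinesin of centralspindlin (-0.91 ± 0.30, adjusted p = 0.0328). Of these Kif4 was the exception in which 1 CKO array reached into the WT range. Kif11, the kinesin that pushes spindle poles apart, was at -3.53, -3.79, -4.70 and -4.50 on the CKO arrays, against -3.20, -2.60, -3.30 and -3.14 on the WT arrays (-1.07 ± 0.57, adjusted p = 0.169). Prc1, which bundles antiparallel microtubules, was at -2.50, -2.26, -2.95 and -2.31 on the CKO arrays, against -1.87, -1.31, -2.03 and -1.63 on the WT arrays (-0.79 ± 0.31, adjusted p = 0.0642). For both, no CKO array reached the WT range, and neither passed the test. Kif22, Tpx2 and Racgap1 lay between -1.06 and -0.43 and did not pass either.

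Of the 6 chromosome structure genes 3 fell. Ncapg, a subunit of condensin I, was at -1.67, -1.70, -2.43 and -1.96 on the CKO arrays, against 0.18, 0.24, -0.35 and 0.10 on the WT arrays (-1.99 ± 0.36, adjusted p = 0.000657). Top2a, the topoisomerase that untangles sister chromatids, was at -1.71, -1.28, -2.49 and -1.57 on the CKO arrays, against -0.12, -0.22, -0.83 and 0.02 on the WT arrays (-1.48 ± 0.50, adjusted p = 0.0370). Smc2, a core subunit shared by both condensins, was at 1.60, 1.60, 1.10 and 1.73 on the CKO arrays, against 2.69, 2.16, 2.09 and 2.18 on the WT arrays (-0.77 ± 0.17, adjusted p = 0.00370). None of these 3 genes had overlapping groups, and the 4 kept probes of Smc2 read between -0.77 and -0.63. Smc4, the partner of Smc2, was at 3.99, 3.86, 3.52 and 4.12 on the CKO arrays, against 4.17, 4.11, 4.05 and 4.24 on the WT arrays (-0.27 ± 0.13, adjusted p = 0.124). Ncapd2, another subunit of condensin I, was at 2.22, 2.37, 1.89 and 2.15 on the CKO arrays, against 2.20, 2.57, 2.55 and 2.68 on the WT arrays (-0.34 ± 0.13, adjusted p = 0.0577). The groups of both overlapped, and 1 of 3 probes of Ncapd2 read 0.60. Ncaph, the kleisin of condensin I, differed by -0.76 ± 0.33, adjusted p = 0.0925, with no overlap.

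Foxm1, the transcription factor that switches on many G2 and M phase genes, was at -2.64, -2.58, -2.56 and -2.49 on the CKO arrays, against -3.05, -2.26, -2.29 and -2.13 on the WT arrays (-0.13 ± 0.27, adjusted p = 0.751). Mki67, which coats mitotic chromosomes and is the common marker of cycling cells, was at -1.22, -1.01, -1.35 and -1.32 on the CKO arrays, against -0.79, -0.05, -0.78 and -0.59 on the WT arrays (-0.68 ± 0.38, adjusted p = 0.192). Foxm1 overlapped between the groups, while each CKO value of Mki67 was below each WT value. Gtse1 was at -1.29, -1.25, -0.88 and -0.33 on the CKO arrays, against -2.07, -1.55, -2.24 and -1.94 on the WT arrays (1.01 ± 0.32, adjusted p = 0.0257), with every CKO array above every WT array.

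Each CKO array of stimulated cells shared a slide with the WT array of the same number. Within the 4 slides the median difference of the members, CKO minus WT, was -0.63, -0.94, -0.995 and -1.12, and 38, 43, 42 and 40 of 45 members were lower in CKO. The count of members that fell was 12 without WT stimulated array 2 and 13 without CKO stimulated array 3, and it was 5 after normexp background correction. The falls of Birc5, Kif20a, Ncapg and Smc2 were called under each of the 19 settings tried, and those of Cdk1, Pbk, Mad2l1, Bub1, Aurka, Plk4, Spc24 and Ect2 under 18. The calls for Ccnb1, Bub3, Top2a, Kif23 and Gtse1 were made under 8 to 10 settings.

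Markers of other cells also differed in stimulated cells, in which 11.7% of all genes tested were higher in CKO and 12.4% lower. Of 8 B cell markers 4 were higher in CKO, with a summed level of 10.2 to 16.2 on CKO arrays and 0.756 to 4.97 on WT arrays. All 8 lay above 0, with a median of 1.81, and Ly6d rose most, 13.5-fold. Both measured thymocyte markers, Dntt and Cd1d1, were higher in CKO, at summed levels of 1.18 to 1.65 on CKO arrays and 0.419 to 0.538 on WT arrays. Of 5 Treg markers 2 rose, Foxp3 (5.46-fold, adjusted p = 5.29e-08) and Ikzf2 (1.64-fold, adjusted p = 0.0288), at summed levels of 21.6 to 33.8 on CKO arrays and 20.6 to 25.0 on WT arrays. Of 7 markers of CD8 and NK cells 1 rose, Cd8a, and of 4 erythroid markers 1 fell, Epor. Of 8 myeloid markers none passed the test; 7 lay above 0, with a median of 0.88, and the summed level was 5.86 to 137 on CKO arrays and 3.03 to 18.2 on WT arrays. On WT stimulated arrays Cd8a, Klrb1c, Ncr1, Itgam, Itgax and Alas2 were not well above background on any array. The summed CD4 T cell markers were 170 to 242 on CKO arrays and 216 to 260 on WT arrays, with 0 of 6 called. Their part in the falls was not tested. In RNA of whole cell samples, fewer cells in mitosis and less of each RNA per cell cannot be told apart.

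Other lists of cell cycle genes were counted in the same comparison, in which 12.4% of all genes fell and 11.7% rose. Of 51 other mitosis genes measured 27 fell and none rose (median -0.77), with Ska1, of the complex that follows shortening microtubules, at -2.25 ± 0.56, adjusted p = 0.00742, and Sgol1, the shugoshin that protects centromeric cohesin, at -1.77 ± 0.22, adjusted p = 1.54e-05. Cenpk and Kntc1, both of the kinetochore, were at -1.94 ± 0.37 and -1.78 ± 0.26 (adjusted p = 0.00101 and 8.36e-05). Of 48 DNA replication genes 44 fell and none rose (median -0.97), led by Cdc6, a loader of the replicative helicase (-2.20 ± 0.44, adjusted p = 0.00162), and Mcm10 (-2.09 ± 0.39, adjusted p = 8.74e-04).

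Upstream of these, 10 of 18 genes of the E2F and DREAM regulators fell and 1 rose. E2f1, an activator of S phase genes, was at -1.46 ± 0.30, adjusted p = 0.00210, and Rbl2 (p130), the pocket protein of DREAM, was the one that rose (0.93 ± 0.18, adjusted p = 9.69e-04). Of 25 genes of the anaphase-promoting complex and cohesin 9 fell, led by Cdca5 (sororin), which secures cohesin on chromatids (-1.73 ± 0.33, adjusted p = 9.52e-04). Among 17 genes of G1 phase and the Cdc25 phosphatases 7 fell and 3 rose. Ccne1, the cyclin of the G1 to S transition, was at -1.70 ± 0.20, adjusted p = 7.21e-06, while Cdc25b, a phosphatase that activates Cdk1, was 9.69-fold higher in CKO (3.28 ± 0.18, adjusted p = 2.23e-10). Of 16 T cell activation genes 3 rose and 2 fell, while 24.1% of all genes were called in one direction or the other; among the 5 were Cd44 (0.74 ± 0.24, adjusted p = 0.0306) and Myc (-0.60 ± 0.15, adjusted p = 0.00776).

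Before stimulation few of these genes passed the test between the genotypes. In naive unstimulated cells 1 of 45 members rose and 1 fell, against 7.92% and 10.9% of all genes tested, and the median log2 fold change was -0.15, against 0.01 over all genes. Bub3 was at 3.09, 2.86, 2.86 and 3.20 on the CKO arrays, against 3.47, 3.79, 3.65 and 3.27 on the WT arrays (-0.54 ± 0.14, adjusted p = 0.0143). Incenp, the scaffold of the chromosomal passenger complex, was at 2.96, 3.09, 3.15 and 2.88 on the CKO arrays, against 2.57, 2.66, 2.72 and 2.76 on the WT arrays (0.34 ± 0.12, adjusted p = 0.0437). These 2 genes were also the only members whose groups did not overlap, while 8.29% of all genes had CKO wholly above WT and 12.3% wholly below. Another kept probe of Bub3 read 0.60, and neither call was stable. Without WT unstimulated array 2, CKO unstimulated array 2 or CKO unstimulated array 3 no member was called, and without WT unstimulated array 1 or 3 or CKO unstimulated array 1 there was 1 call. In the 4 slides the median difference of the members was 0.09, -0.08, -0.06 and -0.35.

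In other cell cycle lists of unstimulated cells, 2 of 51 other mitosis genes fell (Cenpq and Nde1), and of 48 DNA replication genes 2 fell and 1 rose. Of 25 genes of the anaphase-promoting complex and cohesin 1 fell. Among the E2F and DREAM regulators 5 of 18 fell, with E2f1 at -1.13 ± 0.30 (adjusted p = 0.0154), and of 17 genes of G1 phase and the Cdc25 phosphatases 3 fell and 1 rose, with Ccnd2, a D-type cyclin, at -0.88 ± 0.14 (adjusted p = 3.41e-04). Of 16 T cell activation genes 3 rose and 2 fell, while 18.8% of all genes were called in one direction or the other.

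Markers of other cells also differed before stimulation, where 7.92% of all genes tested were higher in CKO and 10.9% lower. Of 5 Treg markers 4 rose: Ctla4 was 2.94-fold, Il2ra 2.14-fold, Il2rb 1.99-fold and Foxp3 1.94-fold higher in CKO, and the summed level was 8.70 to 14.5 on CKO arrays and 3.74 to 9.05 on WT arrays. B cell markers were at summed levels of 32.8 to 79.0 on CKO arrays and 8.35 to 34.5 on WT arrays, with 2 of 8 higher. These were Ly6d, 4.83-fold, and Cd79a, 2.16-fold, and the median of the 8 was 1.23. Of 7 CD8 and NK cell markers 2 rose, Ncr1 and Klrb1c, at sums of 15.8 to 33.0 on CKO arrays and 11.8 to 20.3 on WT arrays, and of 2 thymocyte markers Dntt rose. Of 6 CD4 T cell markers 2 fell, Cd3e and Cd3g, at sums of 251 to 304 on CKO arrays and 272 to 340 on WT arrays. No myeloid marker of 8 and no erythroid marker of 4 passed the test. Their part in the differences of Bub3 and Incenp was not tested.

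Stimulation for 13 h raised 8 of the mitosis and spindle genes in CKO cells and 24 in WT cells. In CKO cells 8 of 45 members rose and 8 fell, while 29.8% and 30.6% of all genes tested did, with a median of 0.24 against -0.08 over all genes. In WT cells 24 rose and 4 fell, while 31.7% and 30.4% of all genes did, with a median of 0.97 against -0.03 over all genes. All 8 that rose in CKO cells were among those that rose in WT cells, and the 4 that fell in WT cells (Ccnb2, Kif23, Smc4 and Mki67) also fell in CKO cells. The largest rises in CKO cells were those of Gtse1 (2.71 ± 0.32, adjusted p = 2.60e-07), Ncaph (1.84 ± 0.33, adjusted p = 5.61e-05) and Pbk (1.36 ± 0.55, adjusted p = 0.0380). The Pbk rise in CKO cells was called under 10 of 19 settings. In WT cells the fitted rises were largest for Pbk (3.19 ± 0.55, adjusted p = 3.43e-05), Cdk1 (2.96 ± 0.57, adjusted p = 0.000110) and Aurkb (2.78 ± 0.64, adjusted p = 0.000668). These 3 genes were well above background on 1, 2 and 1 of the 4 WT unstimulated arrays. Their folds thus rest on few measured baseline values. Of those that rose in WT cells, Pbk and Cdk1 were counted as measured through the stimulated arrays alone. Aurkb and Espl1 were so through the WT stimulated arrays alone. Of the 26 members well above background on all 24 arrays, 4 rose and 7 fell in CKO cells, with a median of -0.31. In WT cells 10 of the 26 rose and 3 fell, with a median of 0.45.

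**Figure D3:**
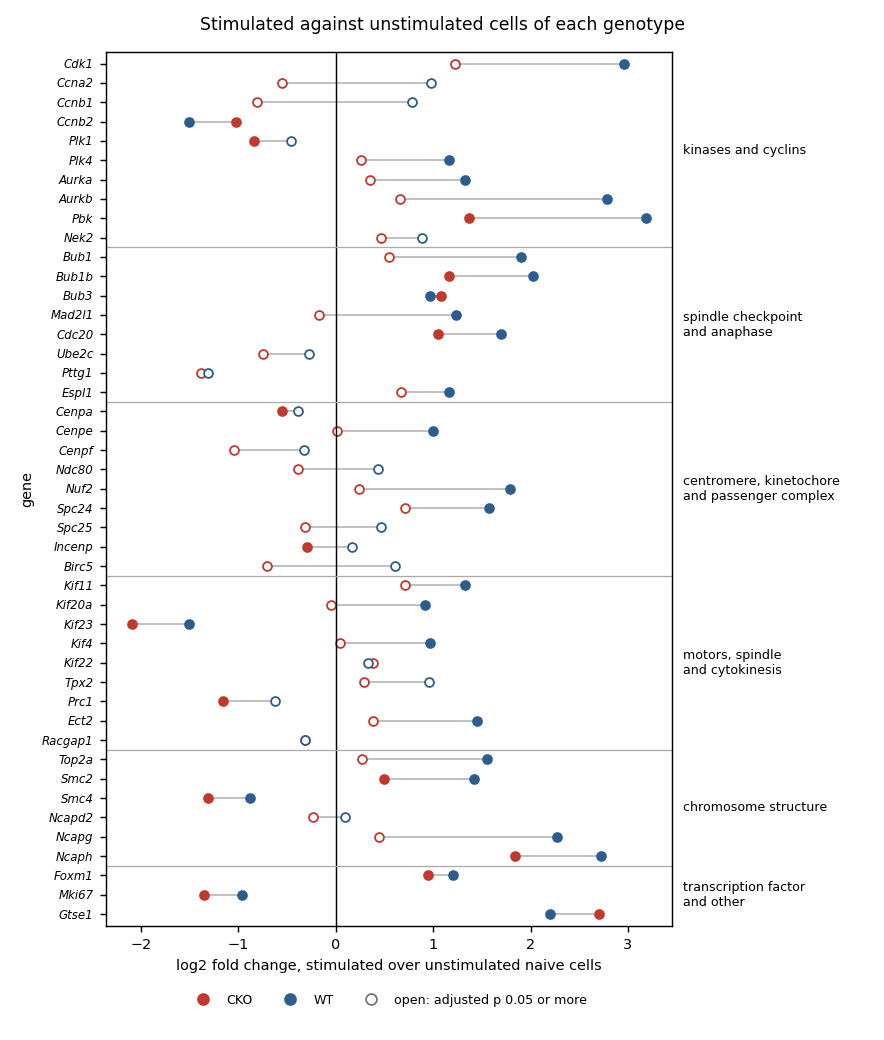
Log2 fold change of each of the 45 measured genes in stimulated over unstimulated naive cells (x axis), with CKO in red and WT in blue joined by a line, by role; filled points have an adjusted p under 0.05 (n = 4 arrays per group). The WT point lies to the right of the CKO point for most genes, by 1.73 for Cdk1 and 1.41 for Mad2l1, while Kif23, Smc4, Ccnb2 and Mki67 lie left of 0 in both genotypes.

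The difference between the genotypes in this response was tested as an interaction. It was below 0 for 41 of 45 members, with a median of -0.78, against 51.9% of all genes and a median of -0.02. It passed the test for 3 members, all lower, while 1.34% of all genes were lower and 2.14% higher: Mad2l1 (-1.41 ± 0.21, adjusted p = 0.000433), Aurka (-0.98 ± 0.24, adjusted p = 0.0253) and Smc2 (-0.93 ± 0.25, adjusted p = 0.0380). Mad2l1 kept its call under 26 of 27 settings and lost it after normexp background correction, Aurka kept its call under 16 and Smc2 under 10. Leaving out WT unstimulated array 1 or 3, WT stimulated array 2 or CKO stimulated array 2 or 3 left 1 call each. For Cdk1 the interaction was -1.73 ± 0.80, adjusted p = 0.302, and for Pbk -1.82 ± 0.78, adjusted p = 0.250. In the DNA replication list 17 of 48 genes passed, all lower, with a median of -0.77.

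The kinases and cyclins split into those that rose and those that did not. In CKO cells Cdk1 spanned -5.13 to -4.08 on the stimulated arrays, against -5.80, -4.65, -5.65 and -7.03 on the unstimulated ones (1.22 ± 0.57, adjusted p = 0.0678). In WT cells Cdk1 spanned -2.65 to -0.90 with stimulation, against -5.35, -3.89, -4.73 and -5.60 without (2.96 ± 0.57, adjusted p = 0.000110). The WT groups were far apart while the CKO groups overlapped. In CKO cells Pbk spanned -6.13 to -4.43 on the stimulated arrays, against -6.54, -4.78, -7.20 and -7.11 on the unstimulated ones (1.36 ± 0.55, adjusted p = 0.0380). In WT cells Pbk spanned -3.09 to -1.41 with stimulation, against -6.07, -3.93, -5.54 and -6.30 without (3.19 ± 0.55, adjusted p = 3.43e-05). Pbk rose in both genotypes and its groups overlapped in CKO, where 1 of 4 unstimulated arrays was well above background. In CKO cells Aurka spanned 0.38 to 0.72 on the stimulated arrays, against -0.05, 0.17, 0.19 and 0.40 on the unstimulated ones (0.35 ± 0.17, adjusted p = 0.0785). In WT cells Aurka spanned 1.04 to 1.30 with stimulation, against -0.29, -0.04, -0.43 and 0.23 without (1.33 ± 0.17, adjusted p = 6.87e-07). Aurka passed in WT alone, with every stimulated array above every unstimulated one. In CKO cells Aurkb spanned -5.86 to -4.88 on the stimulated arrays, against -6.03, -4.33, -6.78 and -7.08 on the unstimulated ones (0.66 ± 0.64, adjusted p = 0.381). In WT cells Aurkb spanned -3.76 to -2.96 with stimulation, against -6.32, -4.52, -7.24 and -6.11 without (2.78 ± 0.64, adjusted p = 0.000668). Aurkb again separated in WT and overlapped in CKO.

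The cyclins and Plk1 took another course. In CKO cells Ccna2 spanned -3.49 to -2.42 on the stimulated arrays, against -2.33, -1.09, -2.53 and -3.31 on the unstimulated ones (-0.55 ± 0.50, adjusted p = 0.352). In WT cells Ccna2 spanned -1.68 to -0.57 with stimulation, against -2.58, -1.02, -2.64 and -2.42 without (0.98 ± 0.50, adjusted p = 0.0969). Ccna2 passed in neither genotype, and its groups overlapped in both. In CKO cells Ccnb1 spanned -6.20 to -4.64 on the stimulated arrays, against -4.23, -3.72, -5.28 and -5.79 on the unstimulated ones (-0.81 ± 0.54, adjusted p = 0.201). In WT cells Ccnb1 spanned -4.45 to -3.87 with stimulation, against -4.99, -3.58, -5.21 and -5.47 without (0.78 ± 0.54, adjusted p = 0.218). Ccnb1 likewise overlapped in both. In CKO cells Ccnb2 spanned -1.75 to -1.12 on the stimulated arrays, against -0.31, 0.18, -0.75 and -0.80 on the unstimulated ones (-1.02 ± 0.34, adjusted p = 0.0146). In WT cells Ccnb2 spanned -1.86 to -1.53 with stimulation, against -0.41, 0.65, -0.56 and -0.45 without (-1.51 ± 0.34, adjusted p = 0.000670). Ccnb2 fell in both, with all stimulated arrays below all unstimulated ones. In CKO cells Plk1 spanned -1.17 to -0.68 on the stimulated arrays, against -0.11, 0.34, -0.26 and -0.58 on the unstimulated ones (-0.84 ± 0.24, adjusted p = 0.00456). In WT cells Plk1 spanned -1.08 to -0.33 with stimulation, against -0.28, 0.07, -0.49 and -0.19 without (-0.46 ± 0.24, adjusted p = 0.105). Plk1 fell in CKO cells, and in WT cells the groups overlapped.

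Checkpoint genes mostly rose in WT cells. In CKO cells Bub1 spanned -4.22 to -3.79 on the stimulated arrays, against -4.21, -3.32, -5.20 and -5.59 on the unstimulated ones (0.55 ± 0.51, adjusted p = 0.369). In WT cells Bub1 spanned -2.58 to -2.06 with stimulation, against -4.92, -3.16, -4.29 and -4.24 without (1.90 ± 0.51, adjusted p = 0.00291). Bub1 separated the WT groups only. In CKO cells Bub1b spanned -3.04 to -2.44 on the stimulated arrays, against -4.26, -3.60, -4.01 and -3.75 on the unstimulated ones (1.17 ± 0.34, adjusted p = 0.00568). In WT cells Bub1b spanned -2.15 to -1.23 with stimulation, against -3.25, -2.85, -4.51 and -4.78 without (2.03 ± 0.34, adjusted p = 2.45e-05). Bub1b rose in both genotypes with no overlap. In CKO cells Bub3 spanned 3.92 to 4.27 on the stimulated arrays, against 3.09, 2.86, 2.86 and 3.20 on the unstimulated ones (1.08 ± 0.14, adjusted p = 1.45e-06). In WT cells Bub3 spanned 4.37 to 4.65 with stimulation, against 3.47, 3.79, 3.65 and 3.27 without (0.96 ± 0.14, adjusted p = 5.03e-06). Bub3 rose in both by this probe, while another kept probe read -0.05 in CKO cells and -0.11 in WT cells. In CKO cells Mad2l1 spanned -2.88 to -2.52 on the stimulated arrays, against -2.71, -2.44, -2.47 and -2.56 on the unstimulated ones (-0.17 ± 0.15, adjusted p = 0.319). In WT cells Mad2l1 spanned -1.74 to -1.01 with stimulation, against -2.70, -2.43, -2.38 and -2.89 without (1.24 ± 0.15, adjusted p = 2.62e-07). Mad2l1 had stimulated and unstimulated CKO arrays in the same range and WT arrays apart. In CKO cells Cdc20 spanned 1.08 to 1.69 on the stimulated arrays, against 0.43, 0.48, 0.33 and 0.22 on the unstimulated ones (1.05 ± 0.24, adjusted p = 0.000646). In WT cells Cdc20 spanned 1.75 to 1.96 with stimulation, against -0.09, 0.61, -0.24 and 0.29 without (1.69 ± 0.24, adjusted p = 2.38e-06). Cdc20 rose in both with no overlap. In CKO cells Pttg1 spanned -0.15 to 2.92 on the stimulated arrays, against 1.38, 1.20, 2.01 and 3.83 on the unstimulated ones (-1.38 ± 0.75, adjusted p = 0.116). In WT cells Pttg1 spanned 0.45 to 2.70 with stimulation, against 1.96, 2.08, 3.86 and 3.94 without (-1.32 ± 0.75, adjusted p = 0.134). Pttg1 passed in neither genotype, and its groups overlapped in both.

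Of the centromere and spindle genes, 5 are given by array. In CKO cells Cenpa spanned -0.18 to 0.23 on the stimulated arrays, against 0.44, 0.52, 1.30 and 0.14 on the unstimulated ones (-0.55 ± 0.18, adjusted p = 0.0138). In WT cells Cenpa spanned -0.20 to 0.15 with stimulation, against 0.27, 0.29, 0.41 and 0.36 without (-0.39 ± 0.18, adjusted p = 0.0718). Cenpa fell in CKO cells, where its groups overlapped; in WT cells they did not overlap, and it did not pass. In CKO cells Ndc80 spanned -2.52 to -2.04 on the stimulated arrays, against -1.78, -1.76, -1.73 and -2.13 on the unstimulated ones (-0.39 ± 0.26, adjusted p = 0.198). In WT cells Ndc80 spanned -2.32 to -0.74 with stimulation, against -2.08, -1.85, -2.57 and -1.58 without (0.43 ± 0.26, adjusted p = 0.150). Ndc80 overlapped in both genotypes. In CKO cells Birc5 spanned -0.53 to 0.13 on the stimulated arrays, against 0.70, 1.11, 0.37 and -0.44 on the unstimulated ones (-0.71 ± 0.41, adjusted p = 0.139). In WT cells Birc5 spanned 1.07 to 1.99 with stimulation, against 0.50, 1.84, 0.43 and 0.51 without (0.61 ± 0.41, adjusted p = 0.200). Birc5 passed in neither genotype. In CKO cells Kif11 spanned -4.70 to -3.53 on the stimulated arrays, against -5.91, -3.51, -4.68 and -5.28 on the unstimulated ones (0.71 ± 0.57, adjusted p = 0.286). In WT cells Kif11 spanned -3.30 to -2.60 with stimulation, against -4.43, -3.31, -4.53 and -5.25 without (1.32 ± 0.57, adjusted p = 0.0480). Kif11 rose in WT cells, close to the threshold. In CKO cells Prc1 spanned -2.95 to -2.26 on the stimulated arrays, against -1.46, -0.65, -1.71 and -1.57 on the unstimulated ones (-1.16 ± 0.31, adjusted p = 0.00270). In WT cells Prc1 spanned -2.03 to -1.31 with stimulation, against -1.36, -0.56, -1.50 and -0.91 without (-0.63 ± 0.31, adjusted p = 0.0824). Prc1 fell in CKO cells, with no overlap.

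Chromosome structure genes, Foxm1 and Mki67 went in different directions. In CKO cells Top2a spanned -2.49 to -1.28 on the stimulated arrays, against -1.55, -0.89, -2.43 and -3.25 on the unstimulated ones (0.27 ± 0.50, adjusted p = 0.664). In WT cells Top2a spanned -0.83 to 0.02 with stimulation, against -2.26, -1.39, -2.54 and -1.19 without (1.56 ± 0.50, adjusted p = 0.00997). Top2a separated in WT cells. In CKO cells Smc2 spanned 1.10 to 1.73 on the stimulated arrays, against 1.17, 1.02, 0.91 and 0.95 on the unstimulated ones (0.49 ± 0.17, adjusted p = 0.0183). In WT cells Smc2 spanned 2.09 to 2.69 with stimulation, against 0.62, 0.97, 0.65 and 1.19 without (1.42 ± 0.17, adjusted p = 3.64e-07). Smc2 rose in both, with overlap in CKO cells. In CKO cells Smc4 spanned 3.52 to 4.12 on the stimulated arrays, against 4.98, 5.05, 5.26 and 5.44 on the unstimulated ones (-1.31 ± 0.13, adjusted p = 1.87e-08). In WT cells Smc4 spanned 4.05 to 4.24 with stimulation, against 5.01, 5.01, 5.05 and 5.03 without (-0.88 ± 0.13, adjusted p = 3.70e-06). Smc4 fell in both with no overlap. In CKO cells Ncapd2 spanned 1.89 to 2.37 on the stimulated arrays, against 2.45, 2.41, 2.42 and 2.27 on the unstimulated ones (-0.23 ± 0.13, adjusted p = 0.129). In WT cells Ncapd2 spanned 2.20 to 2.68 with stimulation, against 2.30, 2.45, 2.28 and 2.57 without (0.10 ± 0.13, adjusted p = 0.541). Ncapd2 passed in neither. In CKO cells Foxm1 spanned -2.64 to -2.49 on the stimulated arrays, against -3.51, -2.85, -3.33 and -4.35 on the unstimulated ones (0.95 ± 0.27, adjusted p = 0.00541). In WT cells Foxm1 spanned -3.05 to -2.13 with stimulation, against -3.86, -3.38, -3.93 and -3.38 without (1.20 ± 0.27, adjusted p = 0.000664). Foxm1 rose in both with no overlap. In CKO cells Mki67 spanned -1.35 to -1.01 on the stimulated arrays, against 0.09, 1.08, -0.13 and -0.54 on the unstimulated ones (-1.35 ± 0.38, adjusted p = 0.00387). In WT cells Mki67 spanned -0.79 to -0.05 with stimulation, against 0.00, 1.30, -0.04 and 0.40 without (-0.97 ± 0.38, adjusted p = 0.0306). Mki67 fell in both, and each stimulated array lay below each unstimulated one; the fall in WT cells was called under 8 of 19 settings.

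Outside these, Gtse1 rose and Kif23 fell in both genotypes. In CKO cells Gtse1 spanned -1.29 to -0.33 on the stimulated arrays, against -4.11, -3.32, -3.35 and -3.79 on the unstimulated ones (2.71 ± 0.32, adjusted p = 2.60e-07). In WT cells Gtse1 spanned -2.24 to -1.55 with stimulation, against -4.34, -4.10, -4.09 and -4.07 without (2.20 ± 0.32, adjusted p = 3.40e-06). Gtse1 separated stimulated from unstimulated arrays in both. In CKO cells Kif23 spanned -4.66 to -4.12 on the stimulated arrays, against -2.43, -2.35, -2.53 and -1.83 on the unstimulated ones (-2.09 ± 0.30, adjusted p = 3.80e-06). In WT cells Kif23 spanned -3.83 to -3.12 with stimulation, against -1.87, -2.18, -1.69 and -2.11 without (-1.51 ± 0.30, adjusted p = 0.000161). Kif23 did so as well, in the other direction.

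Among the called members, Kif23 had the largest fall after stimulation in CKO cells (-2.09 ± 0.30, adjusted p = 3.80e-06), followed by Mki67 (-1.35) and Smc4 (-1.31). In WT cells Kif23 and Ccnb2 both fell by 1.51 on the log2 scale, followed by Mki67 (-0.97).

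**Figure D4:**
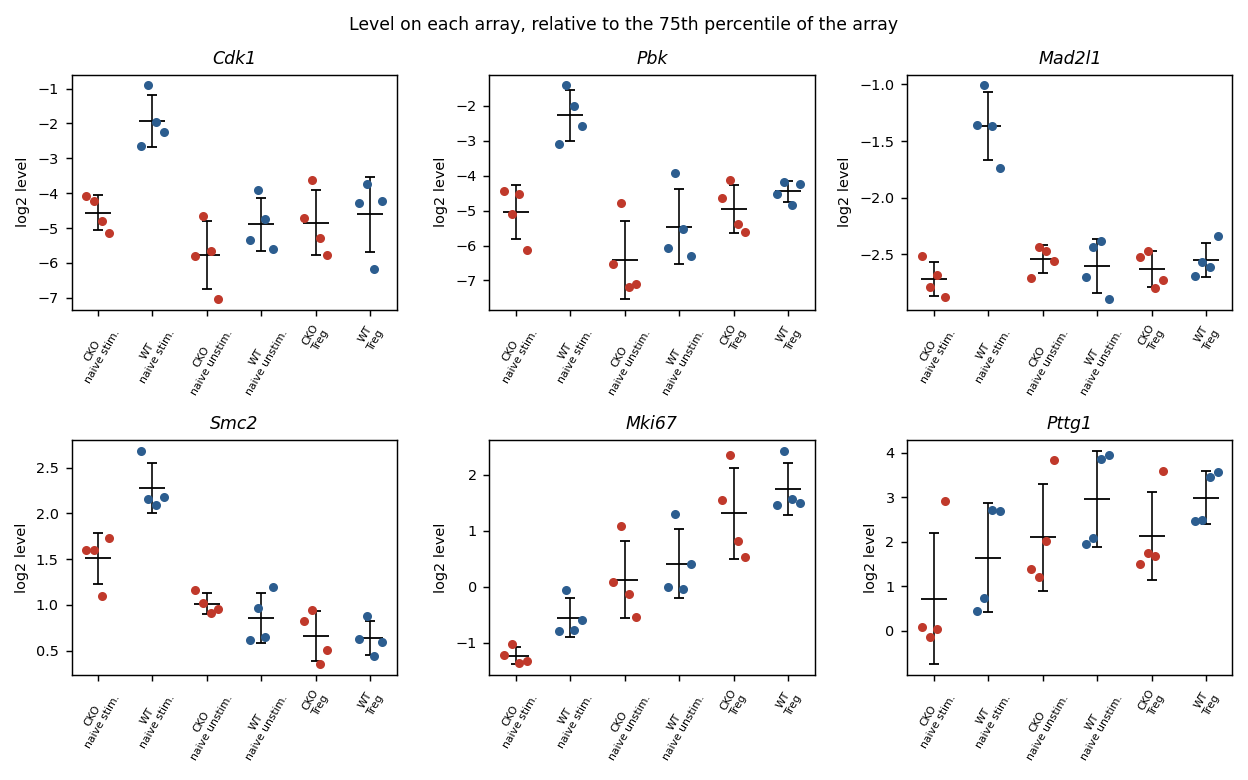
Log2 level of 6 of the genes on each array (points, replicates 1 to 4 from left to right), with the mean and SD of each group of 4 (bars), CKO in red and WT in blue. Cdk1, Pbk, Mad2l1 and Smc2 are high on the WT naive stimulated arrays; Mki67 is highest in Treg, and Pttg1 splits within groups by replicate.

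Markers of other cells were lower on stimulated than on unstimulated arrays in both genotypes. In CKO cells 6 of 8 B cell, 6 of 8 myeloid, 4 of 4 erythroid and 2 of 2 thymocyte markers fell, and in WT cells 8, 7, 3 and 2 did. Over all genes tested, 30.6% fell in CKO cells and 30.4% in WT cells. Summed levels of the B cell markers were 10.2 to 16.2 on CKO stimulated arrays, against 32.8 to 79.0 on CKO unstimulated arrays, and 0.756 to 4.97 on WT stimulated arrays, against 8.35 to 34.5 on WT unstimulated arrays. The erythroid sums were 0.0994 to 0.796 on CKO stimulated arrays, against 0.572 to 55.0 on CKO unstimulated arrays, and 0.134 to 0.415 on WT stimulated arrays, against 1.01 to 54.1 on WT unstimulated arrays. Alas2 was not well above background on any stimulated array, and Epor on none of CKO. Their part in the falls of Mki67, Ccnb2, Kif23 and Smc4 was not tested.

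After the same stimulation 11 of 16 T cell activation genes rose in each genotype, and 5 fell in CKO cells and 2 in WT cells, while 29.8% of all genes rose in CKO cells and 31.7% in WT cells. Of 48 DNA replication genes 37 rose and 3 fell in CKO cells (median 1.19), and 44 rose and none fell in WT cells (median 2.01). Of 51 other mitosis genes 27 rose and 9 fell in CKO cells, against 33 and 5 in WT cells. Among 17 G1 and Cdc25 genes 7 rose and 7 fell in CKO cells, and 9 rose and 8 fell in WT cells. Wee1, the kinase that restrains Cdk1, was at 3.24 ± 0.43 in CKO cells and 4.33 ± 0.43 in WT cells (adjusted p of 1.30e-06 or less). Of the inhibitors of cyclin-dependent kinases, Cdkn1a (p21) was at 4.23 ± 0.28 in CKO cells and 3.06 ± 0.28 in WT cells, and Cdkn2d (p19) at -3.51 ± 0.18 in CKO cells and -3.32 ± 0.18 in WT cells (adjusted p of 4.70e-09 or less for each). Cdkn1b (p27) was at -3.16 ± 0.15 in WT cells (adjusted p = 2.93e-13). Only the largest called changes of a list were named in each comparison, and the value of Cdkn1b in CKO cells is not given here. Within the 2 slides that held both states of a genotype, the median difference of the members was 0.20 and 0.01 in CKO cells and 0.90 and 1.20 in WT cells.

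In Treg the genotypes differed in 1 member: Incenp rose, while 2.49% of all genes tested rose and 1.84% fell. It was at 3.12, 3.36, 3.01 and 3.20 on the CKO Treg arrays, against 2.58, 2.76, 2.83 and 2.66 on the WT Treg arrays (0.47 ± 0.12, adjusted p = 0.0200), with no overlap; the call was made under 12 of 20 settings and was lost, among others, without WT Treg array 1, WT Treg array 4 or CKO Treg array 2. The median over the members was -0.32, against 0.00 over all genes, and 35 of 45 lay below 0, against 49.3% of all genes. Incenp was the only member whose groups did not overlap (4.57% of all genes had CKO wholly above WT, and 3.79% wholly below). Within slides 2, 3, 5 and 6 the median difference of the members was 0.15, -0.08, -0.34 and -0.54. On these slides 28, 18, 15 and 11 of 45 members were higher in CKO Treg. In the treatment field the 4 CKO Treg arrays carry the label of stimulated cells while the 4 WT Treg arrays do not, and titles and source names give no stimulation for either. Of 16 T cell activation genes 0 were higher and 2 lower in CKO Treg (Ifng and Myc). B cell markers were at summed levels of 54.6 to 76.1 on CKO Treg arrays and 4.84 to 17.1 on WT Treg arrays, with 1 of 8 called, Ly6d, which was 21.1-fold higher in CKO Treg (log2 4.40 ± 0.60); the median of the 8 markers was 0.23. The first replicate also differs in age, 7 weeks for CKO Treg and 6 weeks for WT Treg, and the dimmest arrays of the study lie in these groups. Genotype and these differences cannot be told apart here.

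Among the kinases and cyclins, Cdk1 was at -4.70, -3.62, -5.28 and -5.76 on the CKO Treg arrays, against -4.29, -3.72, -6.16 and -4.22 on the WT Treg arrays (-0.24 ± 0.57, adjusted p = 0.924). Ccna2 was at -1.07, -0.19, -2.15 and -2.62 on the CKO Treg arrays, against -1.22, -0.09, -1.21 and -1.10 on the WT Treg arrays (-0.60 ± 0.50, adjusted p = 0.703). Ccnb1 was at -4.11, -3.76, -4.29 and -6.05 on the CKO Treg arrays, against -4.16, -3.20, -4.84 and -3.33 on the WT Treg arrays (-0.67 ± 0.54, adjusted p = 0.686). Within CKO Treg, arrays 3 and 4 were the lowest for all 3 genes. Ccnb2 was at 0.98, 1.33, -0.16 and -0.32 on the CKO Treg arrays, against 0.81, 1.41, 0.25 and 0.42 on the WT Treg arrays (-0.27 ± 0.34, adjusted p = 0.835). Plk1 was at 0.09, 0.90, -0.20 and -0.20 on the CKO Treg arrays, against 0.46, 0.85, 0.35 and 0.21 on the WT Treg arrays (-0.32 ± 0.24, adjusted p = 0.645). Both overlapped between genotypes. Aurka was at 0.27, 0.35, -0.17 and -0.20 on the CKO Treg arrays, against -0.06, 0.34, -0.30 and -0.29 on the WT Treg arrays (0.14 ± 0.17, adjusted p = 0.822). Aurka overlapped as well. Aurkb was at -4.43, -3.78, -5.82 and -6.55 on the CKO Treg arrays, against -5.36, -3.32, -4.55 and -4.54 on the WT Treg arrays. Pbk was at -4.64, -4.13, -5.39 and -5.62 on the CKO Treg arrays, against -4.52, -4.19, -4.83 and -4.24 on the WT Treg arrays. Aurkb and Pbk were not well above background on any CKO Treg array and on 1 WT Treg array each, so no fold is given for them (adjusted p = 0.734 and 0.797).

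Of the checkpoint genes, Bub1 was at -3.43, -2.02, -4.77 and -4.13 on the CKO Treg arrays, against -3.62, -2.05, -3.24 and -3.30 on the WT Treg arrays (-0.54 ± 0.51, adjusted p = 0.754). Bub1b was at -3.75, -2.95, -2.76 and -3.11 on the CKO Treg arrays, against -2.39, -2.58, -3.16 and -2.82 on the WT Treg arrays (-0.40 ± 0.34, adjusted p = 0.710). Bub3 was at 2.71, 2.58, 2.15 and 2.73 on the CKO Treg arrays, against 2.78, 2.55, 2.47 and 2.51 on the WT Treg arrays (-0.04 ± 0.14, adjusted p = 0.958). Each overlapped between genotypes. Mad2l1 was at -2.53, -2.47, -2.80 and -2.73 on the CKO Treg arrays, against -2.69, -2.56, -2.61 and -2.34 on the WT Treg arrays (-0.08 ± 0.15, adjusted p = 0.895). Cdc20 was at 0.78, 0.97, 0.01 and 0.15 on the CKO Treg arrays, against 0.68, 0.99, -0.13 and 0.21 on the WT Treg arrays (0.04 ± 0.24, adjusted p = 0.974). Pttg1 was at 1.50, 1.75, 1.67 and 3.59 on the CKO Treg arrays, against 2.46, 2.49, 3.45 and 3.56 on the WT Treg arrays (-0.86 ± 0.75, adjusted p = 0.722). Mad2l1 lay in a narrow band, while CKO array 4 and WT arrays 3 and 4 were again the high ones for Pttg1.

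Of the centromere and spindle genes, Cenpa was at 0.53, 1.03, 1.22 and 0.90 on the CKO Treg arrays, against 0.60, 0.70, 0.56 and 0.80 on the WT Treg arrays (0.25 ± 0.18, adjusted p = 0.633). Ndc80 was at -1.10, -1.19, -1.50 and -1.62 on the CKO Treg arrays, against -1.32, -1.14, -1.80 and -1.69 on the WT Treg arrays (0.13 ± 0.26, adjusted p = 0.900). Birc5 was at 1.50, 2.06, 0.63 and 0.20 on the CKO Treg arrays, against 1.61, 2.48, 1.26 and 1.28 on the WT Treg arrays (-0.56 ± 0.41, adjusted p = 0.636). Their groups overlapped. Kif11 was at -3.31, -3.19, -3.33 and -6.14 on the CKO Treg arrays, against -3.66, -2.98, -3.92 and -3.83 on the WT Treg arrays (-0.40 ± 0.57, adjusted p = 0.854). Prc1 was at -0.73, 0.26, -0.94 and -1.36 on the CKO Treg arrays, against -0.39, 0.27, -0.62 and -0.13 on the WT Treg arrays (-0.47 ± 0.31, adjusted p = 0.572). CKO array 4 was far below the others for Kif11.

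Of the rest, Top2a was at -0.71, 0.13, -1.60 and -2.06 on the CKO Treg arrays, against -0.79, 0.49, -1.17 and -0.57 on the WT Treg arrays (-0.55 ± 0.50, adjusted p = 0.738). Smc2 was at 0.82, 0.94, 0.35 and 0.51 on the CKO Treg arrays, against 0.63, 0.88, 0.44 and 0.59 on the WT Treg arrays (0.02 ± 0.17, adjusted p = 0.984). Smc4 was at 5.62, 5.42, 5.50 and 5.74 on the CKO Treg arrays, against 5.72, 5.52, 5.80 and 5.87 on the WT Treg arrays (-0.16 ± 0.13, adjusted p = 0.688). The 2 Smc genes differed by less than the spread of their groups. Ncapd2 was at 2.27, 2.55, 2.16 and 2.12 on the CKO Treg arrays, against 2.28, 2.55, 2.32 and 2.45 on the WT Treg arrays (-0.12 ± 0.13, adjusted p = 0.784). Foxm1 was at -2.28, -2.38, -2.74 and -3.09 on the CKO Treg arrays, against -2.95, -2.18, -2.90 and -3.11 on the WT Treg arrays (0.17 ± 0.27, adjusted p = 0.879). Mki67 was at 1.54, 2.35, 0.82 and 0.54 on the CKO Treg arrays, against 1.47, 2.43, 1.57 and 1.50 on the WT Treg arrays (-0.43 ± 0.38, adjusted p = 0.722). Array 2 of each genotype was the highest for Mki67.

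Set against naive unstimulated cells, Treg had higher levels of a part of these genes. The CKO Treg arrays carry the treatment label of stimulated cells, so cell type and that label cannot be told apart in CKO cells. In CKO cells 8 of 45 members rose and 2 fell, while 11.6% of all genes tested rose and 16.7% fell, with a median of 0.60 against -0.07 over all genes. In WT cells 14 rose and 2 fell, while 19.0% and 29.4% of all genes did, with a median of 0.74 against -0.09. Of the 26 members well above background on all 24 arrays, 6 rose and 1 fell in CKO cells, with a median of 0.47. In WT cells 12 of the 26 rose and 1 fell, with a median of 0.61. The lowest level that counted as well above background was -4.64 to -2.69 on CKO Treg arrays. On CKO unstimulated arrays it was -5.47 to -4.54. Samples with the same number deviated together in CKO cells (correlations of 0.37 to 0.49), and with the replicate as a block 17 members rose in CKO Treg. Of the 8, Espl1 was not well above background on any CKO array of either cell type and Nek2 on no CKO Treg array, so neither has a fold. The 6 others were Mki67 (1.18 ± 0.38, adjusted p = 0.0234), Ncapg (1.20 ± 0.36, adjusted p = 0.0171), Kif20a (1.07 ± 0.24, adjusted p = 0.00268), Foxm1 (0.89 ± 0.27, adjusted p = 0.0199), Racgap1, a GTPase-activating subunit of centralspindlin (0.76 ± 0.20, adjusted p = 0.00795), and Smc4 (0.39 ± 0.13, adjusted p = 0.0272).

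These 6 rose in WT Treg as well, where the largest rises among members well above background on all arrays of both groups were those of Ncapg (1.54 ± 0.36, adjusted p = 0.00187), Top2a (1.33 ± 0.50, adjusted p = 0.0330) and Mki67 (1.33 ± 0.38, adjusted p = 0.00710). Racgap1 was called in WT Treg under 7 of 20 settings. Its other kept probe read -0.03 in CKO Treg and 0.82 in WT Treg. The call in CKO Treg was lost with the mean of the kept probes. Aurkb was called higher in WT Treg under 9 of 20 settings, but it was well above background on 1 array of each group, so no fold is given. By the probes used, Bub3 and Kif23 fell in both genotypes: Bub3 by 0.46 in CKO Treg and by 0.97 in WT Treg on the log2 scale (adjusted p = 0.0201 and 2.95e-05), and Kif23 by 1.17 and 1.02 (adjusted p = 0.00630 and 0.00861). Another kept probe of Bub3 read 0.18 in CKO Treg and 0.78 in WT Treg. The difference between genotypes in the Treg comparison passed the test for 0 of 45 members with limma (0.394% of all genes), and 2 members had an unadjusted p under 0.05. Of 48 DNA replication genes 9 rose and 11 fell in CKO Treg and 11 rose and 17 fell in WT Treg (medians -0.18 and -0.23), and of 51 other mitosis genes 8 rose and 3 fell in CKO and 15 rose and 5 fell in WT.

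The Treg counts rest on few arrays. The count of members higher in CKO Treg was 13 without CKO unstimulated array 2, 5 without CKO unstimulated array 3, and 4 without CKO Treg array 2 or CKO unstimulated array 4. That in WT Treg was 22 without WT unstimulated array 2, 8 without WT unstimulated array 1, and 6 without WT unstimulated array 3 or WT Treg array 2. Without the 2 dimmest Treg arrays, CKO array 1 and WT array 4, 3 members rose in CKO Treg. B cell markers were at summed levels of 54.6 to 76.1 on CKO Treg arrays, against 32.8 to 79.0 on CKO unstimulated arrays, and at 4.84 to 17.1 on WT Treg arrays, against 8.35 to 34.5 on WT unstimulated arrays, with 7 of 8 markers called lower in CKO and 5 of 8 in WT. Over all genes tested, 16.7% were lower in CKO Treg and 29.4% in WT Treg. The 1 marker not lower in CKO Treg was Ly6d, which lay at 1.58 on the log2 scale and was not called. Against WT, Ly6d was higher in CKO unstimulated cells (4.83-fold), CKO stimulated cells (13.5-fold) and CKO Treg (21.1-fold). Its share of the summed levels was not tested. The part of the B cell markers in the Treg differences was not tested. Within the 2 slides that held both cell types, the median difference of the members was 0.57 and 0.48 in CKO cells and 0.51 and 0.62 in WT cells.

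The members also varied together among the arrays of a group. The array numbered 2 was the highest of its group for 21 of 45 members in CKO stimulated cells and for 34 in WT stimulated cells. It was so for 34 members in CKO unstimulated cells, 28 in WT unstimulated cells, 31 in CKO Treg and 34 in WT Treg. Over all genes, that array was the highest for 12.9% to 25.9% of genes in these groups. The unstimulated and Treg arrays numbered 2 shared slide 3, and the stimulated ones were on slide 2. With no array numbered 2, a setting added after this was seen, 15 members fell in CKO stimulated cells and 27 rose after stimulation in WT cells.

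**Figure D5:**
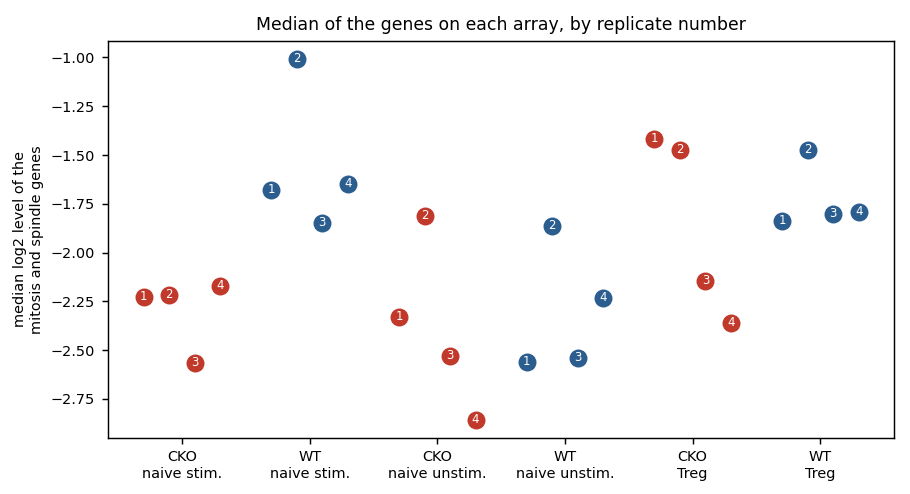
Median log2 level of the 45 measured genes on each array (y axis), by group (x axis), with CKO in red, WT in blue and the replicate number in each point. Array 2 is at or near the top of each group, at -1.01 in WT naive stimulated cells and -1.47 in WT Treg, and all 4 CKO naive stimulated arrays lie between -2.56 and -2.17, below the 4 WT ones.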

How the data were processed

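Total RNA of 24 samples was labelled with Cy3 and hybridised to 1-colour Agilent arrays, 4 on each of 6 slides. The deposited intensity values per spot came from Agilent Feature Extraction 9.5, per the file headers, with background subtracted and low values replaced by surrogates. The authors' deposited table of normalized intensities has the same distribution in all 24 columns, and how it was made is not given in the sources used here. Spots of a probe were averaged without outlier spots, and each array's 75th percentile was subtracted after log2. A probe was kept if well above background on at least 3 of 4 arrays of a group (25198 of 41174), and the brightest kept probe stood for its gene (16497 genes). limma 3.58.1 (R 4.3.3) fitted 6 group means over all 24 arrays, with 2-sided contrasts, Benjamini-Hochberg adjustment over all genes and a threshold of 0.05. Only 4 arrays per group limit the precision. The fit was tested on simulated data.

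The members and gene lists were chosen with earlier results of these data known. Values per array are given for a set of members spread over the roles, plus the 3 called members with the largest change in each direction of a comparison. Alternatives were other background corrections, normalizations, filters and probe rules, array weights, replicate and slide blocks, and leaving out arrays. Replicate numbers were tested for pairing by correlating deviations from group means over genes. Only in CKO Treg against CKO unstimulated cells did all 4 pairs exceed 0.1 (0.37 to 0.49), and the labels give no pairing. Other comparisons were mixed, at -0.165, 0.544, 0.492 and 0.345 for stimulated against unstimulated WT cells. They were 0.224, 0.377, 0.245 and 0.091 for stimulated against unstimulated CKO cells. WT Treg against WT unstimulated cells had 0.056, 0.464, 0.35 and 0.273. CKO against WT Treg had 0.236, 0.457, 0.247 and 0.084, and CKO against WT stimulated cells -0.309, 0.205, 0.412 and 0.057. Promoter sequences are those of RefSeq on GRCm38.p6. Tables were handled with pandas 2.3.3 and numpy 2.4.6, and plots drawn with matplotlib 3.10.9.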

Additional observations from a re-analysis of the deposited data

Results flagged for a closer look

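Of 156 groups of 4 arrays, 14 held an array that stood apart from the other 3 by more than Dixon's critical value, while chance flags about 1 in 20 groups. In WT samples numbered 2, Ccna2 was high at -1.02 in unstimulated cells and at -0.09 in Treg. Ccnb2 (0.65) and Birc5 (1.84) were high on the same WT unstimulated array, and Mki67 (2.43) and the median of all members (-1.47) on WT Treg array 2. In WT stimulated cells array 1 stood apart, low for Ccnb1 (-4.45) and Foxm1 (-3.05) and high for Smc2 (2.69). CKO arrays numbered 4 stood apart for Pttg1, high at 2.92 in stimulated cells and at 3.59 in Treg, for Ndc80, low at -2.13 in unstimulated cells, and for Kif11, low at -6.14 in Treg. Within CKO stimulated cells, the median of all members stood apart low on array 3, at -2.56.

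The response to stimulation differed between the genotypes, by the interaction test of limma, for Mad2l1 (-1.41), Aurka (-0.98) and Smc2 (-0.93). In WT cells all 3 rose after stimulation, while in CKO cells Smc2 did and Mad2l1 and Aurka did not pass the test.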

How the results depend on the processing

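Under normexp background correction, which adds an offset of 50 to the signal and so compresses low levels by construction, the count of members that fell in CKO stimulated cells was 5 against 21. Under the same correction it was 8 against 16 called after stimulation in CKO cells, 14 against 24 higher after stimulation in WT cells, 27 against 8 higher in CKO Treg and 32 against 14 higher in WT Treg. It left 0 members called between genotypes in unstimulated cells and in Treg, and 0 for the genotype by stimulation difference. It also turned the sign of Espl1 (0.09) and Kif23 (0.0407) in CKO stimulated cells, of Kif23 in CKO Treg (0.44) and WT Treg (0.40), and of Smc4 in CKO Treg (-0.17). It moved the median of all genes from -0.05 to 0.08 in CKO stimulated cells. Under the other alternatives with all arrays kept, 14 to 31 members fell in CKO stimulated cells.

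In unstimulated cells 2 members were called, against 1 with no filter on dim probes or the mean of the kept probes, 5 with array weights, 4 with the slide block, and 0 with the compared arrays alone or with no arrays numbered 2. In Treg 1 was called, against 2 with quantile normalization, the authors' normalized values or the slide block, and 0 with no filter, the compared arrays alone or without the 2 dimmest Treg arrays. The genotype by stimulation difference passed for 3, against 1 with quantile normalization, the authors' normalized values, no filter or no arrays numbered 2, 5 with the mean of the kept probes, 8 with array weights and 10 with the slide block. The count higher in CKO Treg was 8, against 13 with array weights or the slide block, 4 with the compared arrays alone and 3 without the 2 dimmest Treg arrays. The count higher in WT Treg was 14, against 6 with quantile normalization or the authors' normalized values and 8 with no filter. Leaving out arrays numbered 2 or dim Treg arrays was chosen after seeing the data. The cause of these differences was not tested.

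With the replicate number as a block, the counts were 31 (lower in CKO stimulated cells), 4 (unstimulated), 2 (Treg genotypes), 22 and 27 (stimulation in CKO and WT), 10 (genotype by stimulation), 17 and 25 (higher in CKO Treg and WT Treg) and 0 (genotype by cell type). The labels give no pairing in any comparison. Replicate 1 was 7 weeks old in CKO Treg and 6 weeks old in CKO unstimulated cells. The deviations of that pair correlated at 0.47.

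Leaving out 1 array at a time gave 12 to 21 members lower in CKO stimulated cells, 0 to 3 called in unstimulated cells and 0 to 2 in Treg. It gave 13 to 17 called after stimulation in CKO cells, 21 to 27 higher in WT cells, 1 to 4 for genotype by stimulation, 4 to 13 higher in CKO Treg and 6 to 22 in WT Treg. The genotype by cell type difference was passed by 0 members under all of these settings.

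Of all calls in stimulated cells, 48.6% were higher in CKO, against 60.9% with quantile normalization, 61.1% with the authors' normalized values and 29.2% after normexp correction. In Treg 57.4% of calls were higher in CKO, against 87.7% after normexp and 70.7% with the compared arrays alone. For CKO Treg over CKO unstimulated cells 41.0% of calls were higher, against 54.6% after normexp, and for WT Treg 39.3%, against 54.2%. With no filter the median of all genes was -0.18 in CKO stimulated cells, and 0.46 and 0.50 for CKO and WT Treg over unstimulated cells. Low signal over background limits Cdk1, Aurkb, Pbk, Nek2, Espl1 and Ccnb1 most, in Treg above all.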

Other observations

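Pttg1 (securin) had 1 probe on the array, and its level fell into high and low values that ran by replicate and not by group. CKO array 4 and WT arrays 3 and 4 were high in stimulated cells, unstimulated cells and Treg, and the other 5 arrays of each state were low. The smallest gap between the high and the low arrays of a state was 0.97 on the log2 scale. Of 16497 genes, 26 had this order of arrays in all 3 states, and the largest such gap of any other gene was 0.35. The order was chosen after the values of Pttg1 were seen. The labels do not name the animals behind arrays of one number and genotype. The ages of arrays numbered 1 differ between states. In WT they were 6 weeks for unstimulated cells and Treg and 7 weeks for stimulated cells. In CKO they were 6 weeks for unstimulated cells and 7 weeks for stimulated cells and Treg.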
